A study of Mus musculus with 3 samples.

Results

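The MHC-II-high C1q-low cells are tumor-infiltrating cells with much class II mRNA, little complement C1q mRNA and a transcript of the CSF1 receptor. They were picked from a single-cell RNA library of control B16F10 tumor by values measured in the same cells. To be kept, a barcode needed 1000 or more unique molecules (UMIs) from 400 or more genes, with no more than 10% of them mitochondrial. A cell then qualified if H2-Aa, H2-Ab1, H2-Eb1 and Cd74 made up at least 3% of its UMIs and C1qa, C1qb and C1qc under 0.3%. It also needed 1 or more Csf1r UMIs, 0 of Flt3, Xcr1, Clec9a and Siglech, and at most 1 of Ccr7. The rule found 632 cells among the 4443 kept from the control tumor, which is 14.2% (13.2 to 15.3) of that library, and among 14427 kept in the 3 libraries. They were 20.6% (19.2 to 22.1) of the control tumor's 3061 cells with a Csf1r UMI. Brackets hold 95% counting intervals throughout, and these leave out any difference between animals.

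The study profiled sorted myeloid cells of C57BL/6J mice carrying subcutaneous B16F10 melanoma, a transplanted mouse line. Its 3 libraries were Treg-depleted tumor with the FoxP3 DTR allele, control (WT) tumor, and control tumor-bearing blood. The DTR allele puts a diphtheria toxin receptor under the promoter of the regulatory T cell gene Foxp3, so depletion and genotype cannot be told apart. All cells were viable CD45+ and CD11b+ and/or CD11c+, and negative for CD90, NK1.1, Ly6G, B220 and SigF. The labels give no number, age, sex or pooling of the animals, and no toxin dose or time. Each group is 1 library, so nothing below carries a p-value, and every difference is one between libraries or between cells of 1 library. A gene was called higher or lower in a comparison when its summed UMIs, scaled by the group's total to the usual CPM unit, differed at least 2-fold.

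MHC class II molecules are heterodimers that show peptides from endocytosed protein to CD4 T cells. The invariant chain Cd74 guides them to the endosome, and H2-DM there exchanges its remnant for peptide, while H2-O restrains H2-DM. The transactivator Ciita turns these genes on through factors bound to a conserved promoter module, the X box and the Y box. Inflammatory monocytes that enter a tumor can gain class II and become macrophages or cells that resemble dendritic cells. C1q genes mark many tissue macrophages, and Flt3 marks conventional dendritic cells of the bone marrow dendritic lineage.

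The promoter stretches below are shown because the class II genes that chose the cells, and those that moved with them, lie on chromosome 17. Of these, H2-Aa, H2-Eb1 and H2-DMb1 carry the same short module, H2-DMb2 carries part of it, and none was found for H2-DMa. They come from the RefSeq promoter table used here (GRCm38.p6), where 8 of the 9 class II genes looked up matched 9 entries, and the H2-Ab1 promoter was not analysed here. Each is 57 bases on the gene's strand, upstream of the start. Capitals mark the Y box TGATTGG and, where found, the X box core GNAAC placed 23 to 26 bases before it. The coordinates are chr17:34287857-34287913 (minus strand) for H2-Aa and chr17:34305766-34305822 (plus strand) for H2-Eb1. They are chr17:34153088-34153144 for H2-DMb1, chr17:34145117-34145173 for H2-DMb2 and chr17:34092294-34092350 for H2-Oa, all plus strand.
H2-Aa: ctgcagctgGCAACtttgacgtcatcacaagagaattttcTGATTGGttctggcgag
H2-Eb1: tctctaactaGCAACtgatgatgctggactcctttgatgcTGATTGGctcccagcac
H2-DMb1: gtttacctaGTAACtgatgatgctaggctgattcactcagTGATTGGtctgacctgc
H2-DMb2: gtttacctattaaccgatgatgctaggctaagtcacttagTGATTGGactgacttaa
H2-Oa: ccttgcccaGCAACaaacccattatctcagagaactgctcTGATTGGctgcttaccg

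Over both strands of the 250 bases before the start, the spaced pair was present in 6 of the 9 class II entries and in 29 of all 32851 (0.0883%). TGATTGG alone was in 7 of the 9 and in 7.23% of all. The spacing was chosen after these sequences had been seen, and a match of letters is a description, not a binding site. H2-Oa, H2-Ob, H2-DMb1, H2-Aa and H2-Eb1 hold the pair, and H2-DMb2 holds the Y box alone. The H2-DMa entries hold neither the pair nor the Y box.

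The cells came from the deepest of the 3 libraries, and their own depth was close to that of their library. Kept cells had medians of 3820, 6452 and 3550 UMIs in the Treg-depleted tumor, the control tumor and control blood, from 22944387 to 42493416 UMIs in a library. The 632 cells held 4653159 UMIs, with a median of 6357.5 UMIs and 1927.5 genes per cell. Near-empty barcodes (1 to 50 UMIs) of the control tumor held 4.43% class II and Cd74 UMIs and 0.596% C1q UMIs. Both shares are above the limits of the rule, 3% and 0.3%, and the part of free RNA in the cells' levels was not tested. The simulated-doublet score marked 23 of the 632 cells (3.64%) and 3.56% of the library. Of the 632 barcodes, 17 were also kept in another library, and 3 passed the rule there too.

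**Figure D1:**
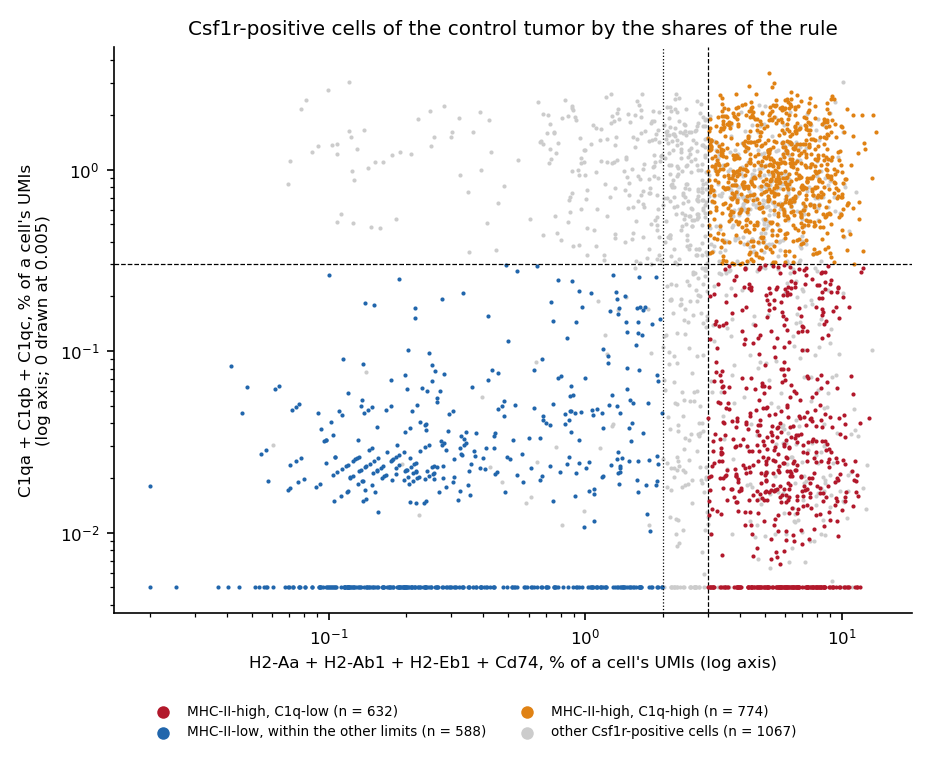
Each point is a Csf1r-positive cell of the control tumor, by the class II and Cd74 share (x) and the C1q share (y) of its UMIs, both on log axes. Dashed lines mark 3% and 0.3%, the dotted line 2%. The 632 MHC-II-high C1q-low cells fill the lower right, the 774 C1q-high counterparts lie above them and the 588 MHC-II-low cells within the other limits to the left. Points run across both lines with no gap.

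The values that chose the cells are given as description only. Their class II and Cd74 share had a median of 5.89% and ran from 3.00% to 12.8%, and the C1q share had a median of 0.0231%. Summed levels were 10571 CPM for H2-Aa, 13304 for H2-Ab1, 6505 for H2-Eb1 and 30168 for Cd74. In 226 of the 632 cells (35.8%) Csf1r rested on 1 UMI, so many cells entered on a single molecule. At the 3% line, 29 cells lay within 0.25 points above it and 32 below it. H2-DMb1 stood at 875 CPM just above and 728 CPM just below that line. At the C1q line, 24 cells lay within 0.05 points below it and 33 above it, with Ms4a7 at 136 and 384 CPM. Ccl8 stood at 458 CPM below that line and 250.3 CPM above it, and Pf4 at 243 and 166 CPM.

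The Ccr7 limit, the last clause, removed 98 cells that met all the others. Their median was 12580 UMIs, 38 of them lay in the cluster led by Cd209a and 35 in a deep cluster led by Ccl17. Il12b, a subunit of IL-12, had 1.07 CPM in the 632 cells and 156 CPM in the removed cells. Limits set on whole UMIs act differently in deep and shallow cells. With every cell thinned to 1500 UMIs the rule still found 323 of 4278 control tumor cells, 7.55% (6.78 to 8.38), and 27.0% (24.5 to 29.6) of those with a Csf1r UMI.

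The markers named for these cells, H2-Ab1, H2-Aa, Cd74 and Csf1r, are all part of the rule, so their presence is no check of the label. Csf1r had 317 CPM, against 333 CPM in all Csf1r-positive cells with a class II share under 2% and 406 CPM in those that met the other limits. The label was therefore read against monocyte and macrophage genes outside the rule. Fcgr1, the high-affinity IgG receptor CD64, had 445 CPM and Adgre1 (F4/80) 122 CPM. The classical monocyte genes Ly6c2 and Plac8 had 859.8 and 3042 CPM, and Cd14, the lipopolysaccharide coreceptor, had 3901 CPM. Near-empty barcodes of the library held all 5 as well, with Fcgr1 at 331, Adgre1 at 145, Ly6c2 at 542, Plac8 at 2277 and Cd14 at 2860.2 CPM. Adgre1 thus stood no higher in the cells than in free RNA, and the part of free RNA in these levels was not tested. The dendritic cell factor Zbtb46 had 7 UMIs in all (1.504 CPM) and Kit had 11 UMIs (2.36 CPM). The macrophage gene Mertk was as scarce as Kit, with 11 UMIs (2.36 CPM), and 2 of the 31 genes of the macrophage list were at 0.

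Defining markers of other lineages were at or near 0 in the sums. Cd3e, Ncr1, Ly6g, Camp, Col1a1, Cpa3 and Mcpt8 had 0 UMIs, so each stood under the limit of 0.645 CPM that 3 counts set. B cell markers summed to 10.3 CPM over 11 genes, and 9 cells (1.42%) held a UMI of Cd79a, Cd79b or Ms4a1. Melanoma genes, of the tumor cells themselves, summed to 25.4 CPM over 12 genes. Of the mast cell, basophil and eosinophil markers, 10 of 12 were at 0 and Hdc made up nearly all of their 61.2 CPM. The NK and T cell list summed to 533 CPM over 16 genes, with 5 at 0, and all but a few CPM were Ccl5 (395 CPM) and Klrk1 (132 CPM), which myeloid cells also express. The neutrophil list summed to 346 CPM over 14 genes, most of it Il1r2 (249.5 CPM), and stromal and endothelial markers summed to 13.8 CPM over 12 genes. Cd209a, a lectin of monocyte-derived and type 2 dendritic cells, stood at 58.2 CPM. It lay in 46 cells, and the 10 highest held 60.5% of its UMIs.

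The first contrast set the cells against the 839 Csf1r-positive cells of the control tumor whose class II and Cd74 share was under 2%, with no limit on other genes. Of 6094 genes with a mean of at least 10 CPM, 45 (0.738%) were called higher in the MHC-II-high cells and 137 (2.25%) lower, and 108 and 239 with cells thinned to 1500 UMIs. That contrast group also took in C1q-rich macrophages and Ccr7-rich cells, with C1qa at 1738 CPM and Ccr7 at 85.7 CPM. A second contrast kept only the 588 MHC-II-low cells that met the other limits too, where C1qa had 77.7 CPM and Ccr7 6.25 CPM. There 92 of 5926 genes (1.55%) were higher and 134 (2.26%) lower, and 210 and 259 with thinned cells. The second contrast was added after the first had been seen, and its values follow as "within the limits". Both are the contrast the rule was built on, in the same cells, so their values describe the cells and support nothing beyond that.

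Among 20 class II pathway genes outside the rule, 14 were measurable at that minimum, 3 were higher and 0 lower in both contrasts. The 3 were the H2-DM genes, which make the peptide editor. H2-DMb1 had 1224 CPM in MHC-II-high cells, against 239 CPM in all MHC-II-low cells and 171 CPM within the limits, a log2 ratio of 2.84 (2.71 to 2.98) for the last. H2-DMa had 1019 CPM, against 366 and 300.5 CPM. H2-DMb2 had 66.0 CPM, against 7.05 and 3.47 CPM. H2-DMb1 and H2-DMb2 are near-identical copies, so reads may have been split between them.

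H2-Oa had 12.03 CPM in MHC-II-high cells and 3.12 CPM within the limits, and H2-Ob 8.81 and 1.04 CPM. The means of both lay under the 10 CPM minimum, so they were not called. Ctss and Lgmn, proteases of the endosome, had 4301 and 1267 CPM in MHC-II-high cells, against 3239 and 1039 CPM within the limits. Ifi30, a thiol reductase of the same compartment, had 661 against 517 CPM. Ciita had 10.3 against 4.16 CPM, from 48 and 12 UMIs, and its mean lay under the 10 CPM minimum, so it was not called. The DNA-binding subunits did not pass 2-fold either way: Rfxap had 30.9 against 22.9 CPM, and Nfyb 23.4 against 31.6 CPM.

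Class I presentation and costimulation did not part the groups at 2-fold. Over all genes, 0.738% were called higher and 2.25% lower in the first contrast, and 1.55% and 2.26% within the limits. At such shares a short list would hold few or no calls, so the counts below do not set these lists apart from other genes. Of 18 class I pathway genes 0 were called in either direction, with a median log2 ratio of 0.28 in both contrasts, against -0.08 for all genes in the first and -0.02 within the limits. Psmb8, an immunoproteasome subunit, had 1163 CPM in MHC-II-high cells and 785 CPM within the limits. B2m, the class I light chain, had 8319 and 8172 CPM. Of the costimulatory and inhibitory ligands, 0 of 12 measured were called within the limits. Cd86 had 426 and 437 CPM, and Cd274, the ligand PD-L1, 229 and 261 CPM. None of 37 measured transcription factors of myeloid fate was called against all MHC-II-low cells. Within the limits 1 was, Fosb, at 43.8 against 19.4 CPM (log2 ratio 0.75 with cells thinned to 1500 UMIs, under 2-fold), while Irf8 had 390.3 and 425 CPM.

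Most measured genes of the cDC2 and pan-dendritic list were higher in the MHC-II-high cells. Of 11 measured within the limits, 7 were at least 2-fold higher and 0 lower, with a median log2 ratio of 1.51 against -0.02 for all genes. A scarce gene could pass the 10 CPM minimum through its level in 1 group alone, as Mgl2 did. The count and the median therefore depend in part on that minimum, and they leave out list genes scarce in both groups. The same holds for this list in the later comparisons. Mgl2, a galactose lectin, had 109 CPM in MHC-II-high cells and 4.16 CPM within the limits, a log2 ratio of 4.71 (3.89 to 5.67). Clec10a, its relative, had 68.8 and 22.6 CPM, and Itgax, the integrin CD11c of the sort, 40.6 and 14.2 CPM. These came from few cells: 68 of 632 held a Mgl2 UMI and the 10 highest held 55.4% of its UMIs. The list's 25 genes summed to 787 CPM in MHC-II-high cells, 538 CPM in all MHC-II-low cells and 552 CPM within the limits, and 1 member was at 0 in MHC-II-high cells. Without the cells that held a Cd209a, Zbtb46 or B cell marker UMI, the log2 ratio of Mgl2 against all MHC-II-low cells was 1.56, and 2.05 with them. It was 1.15 when both groups needed at least 2 Csf1r UMIs. Any part of dendritic cells among the 632 in the other genes of the list was not tested.

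Genes outside the dendritic lists were higher as well. Ly6a, the interferon-inducible surface protein Sca-1, had 1225 CPM in MHC-II-high cells, against 363 CPM in all MHC-II-low cells and 212 CPM within the limits. It was found in 506 of the 632 cells (80.1%), and in 396 of the 839 MHC-II-low cells (47.2%), with median depths of 6357.5 and 5077 UMIs. Il1r2, a decoy receptor for IL-1, had 249.5 CPM, against 78.7 and 131 CPM, so it passed 2-fold only in the first contrast. Klrk1, the activating receptor NKG2D, had 132 CPM, against 42.5 and 55.2 CPM, while the NK cell genes Ncr1 and Nkg7 had 0 and 2 UMIs. Ass1, which makes the arginine precursor argininosuccinate, had 326 CPM, against 139 and 205 CPM, likewise past 2-fold in the first only. Aif1 (IBA1) had 1089 CPM and Il18bp, the IL-18 binding protein, 88.5 CPM, against 404 and 35.0 CPM within the limits. Hspa1a, a heat shock protein, had 333 against 104 CPM, with 64.0% of its UMIs in 10 cells. Near-empty barcodes of the library held Ly6a at 1268, Il1r2 at 268, Klrk1 at 129, Il18bp at 91.5 and Hspa1a at 356 CPM. Each was near or above its level in the MHC-II-high cells. Ass1 and Aif1 stood lower there than in the cells, at 128 and 966 CPM. The part of free RNA in these levels was not tested.

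Classical monocyte genes were lower in the MHC-II-high cells. Within the limits 10 of 22 were at least 2-fold lower and 0 higher, with a median log2 ratio of -0.90. Chil3 (Ym1), a chitinase-like protein of fresh monocytes, had 253 CPM in MHC-II-high cells and 1823 CPM within the limits, a log2 ratio of -2.85 (-2.94 to -2.76). Hp, haptoglobin, had 101 and 581 CPM. Cd177 had 10.1 and 98.5 CPM, and the glutathione enzymes Mgst1 and Gsr had 73.1 and 113 CPM against 465 and 512 CPM. Not all monocyte genes followed: Ly6c2 had 859.8 and 829.7 CPM, and Ccr2, the receptor that draws monocytes out of marrow, 218 and 269 CPM. The 22 genes summed to 33794 CPM in MHC-II-high cells, 37950 CPM in all MHC-II-low cells and 55545 CPM within the limits. Against all MHC-II-low cells 7 of the 22 were lower and 0 higher, with a median log2 ratio of -0.33. Nonclassical monocyte genes were lower too, 9 of 14 within the limits. Ace, angiotensin-converting enzyme, had 8.81 against 40.6 CPM, and Itgal, the integrin CD11a, 26 against 93.0 CPM.

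Macrophage genes were lower against all MHC-II-low cells and mostly not against those within the limits. Against all, 10 of 25 were at least 2-fold lower and 0 higher, while within the limits 1 of 24 was lower and 5 were higher. Trem2, a lipid-sensing receptor, had 61.5 CPM in MHC-II-high cells, 301 CPM in all MHC-II-low cells and 82.9 CPM within the limits. Ms4a7 had 130.4 CPM, against 494 and 104 CPM, and the chemokine Ccl8 86.6 CPM, against 637 and 79.5 CPM. For Ms4a7, Ccl8, Cd63 and Ccl12 the sign changed between the contrasts. The 5 higher within the limits were Mrc1, the mannose receptor, at 79.3 against 25.3 CPM, and Pltp, Axl, Cd72 and Cd81. Pf4, the chemokine CXCL4, was lower in both, at 89.0 CPM against 1029.7 and 315 CPM.

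Inflammatory mediators were at high levels in both groups. Within the limits 3 of 23 NF-kB genes and cytokines were lower and 0 higher, against 2.26% of all genes lower: Il1a, Il6 and Csf3. Il1b had 4886 CPM in MHC-II-high cells and 7014 CPM within the limits, and Tnf 215 and 232 CPM. Cxcl10, an interferon-induced chemokine for T cells, had 517 and 1717 CPM, a log2 ratio of -1.73 (-1.80 to -1.66). Its partner Cxcl9 had 428 and 389.7 CPM. Of 26 measured type I interferon genes 2 were lower (Ifi203 and Ifi47), against the same 2.26%, and Isg15 had 1367 and 1078 CPM.

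**Figure D2:**
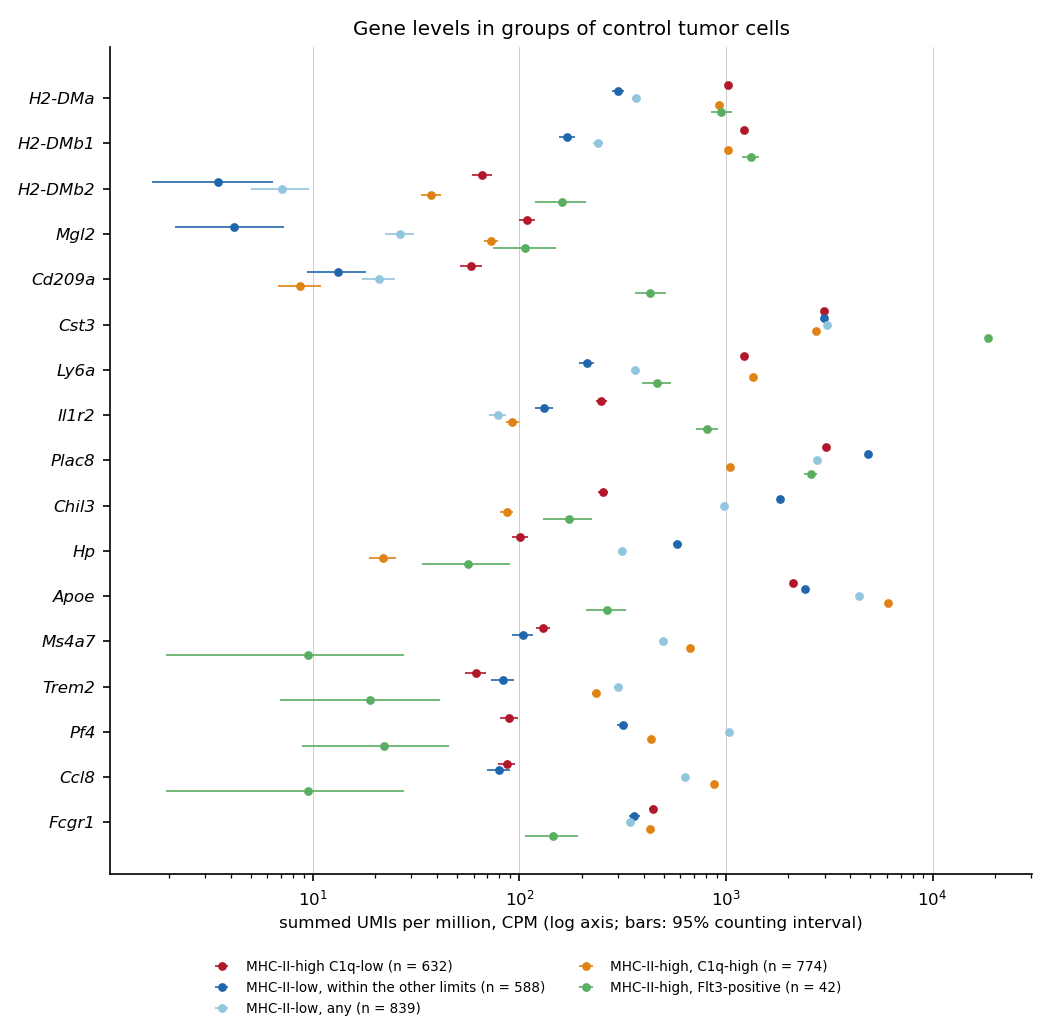
Summed CPM of 17 genes on a log axis in 5 groups of control tumor cells, with 95% counting intervals as bars. H2-DMa, H2-DMb1 and Ly6a lie higher in the MHC-II-high C1q-low cells than in either MHC-II-low group. Chil3 and Hp lie lower than in them and above the C1q-high counterparts.

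Over bins of the class II share, which the rule used, the levels of these genes changed step by step. The genes were named from the contrast on that share, so the steps are description. Csf1r-positive cells within the other limits were cut into 7 bins by that share, from under 0.5% (381 cells) to 6% and more (299 cells). H2-DMb1 had 81.0, 226, 379, 665, 864, 1133 and 1435 CPM from the lowest bin to the highest. Ly6a had 133, 262, 393, 617, 799, 1063 and 1520.2 CPM. Both were higher in every bin than in the one before.

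The monocyte genes ran the other way. Mgst1 had 605, 342, 163, 120.0, 104, 78.6 and 56.8 CPM, lower in each bin than in the one before. Gsr and Cd177 also fell at each step, to 97.9 and 5.73 CPM in the top bin. Chil3 had 2343 CPM in the lowest bin, 1139 CPM in the next, 656 CPM between 2% and 3%, and 189 CPM at the top. Fcgr1 moved little, with 343 CPM in the lowest bin and 451 CPM at the top. Median depth was 4486 UMIs in the lowest bin and 6313 in the highest, and its part in these levels was not tested beyond the thinned counts.

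**Figure D3:**
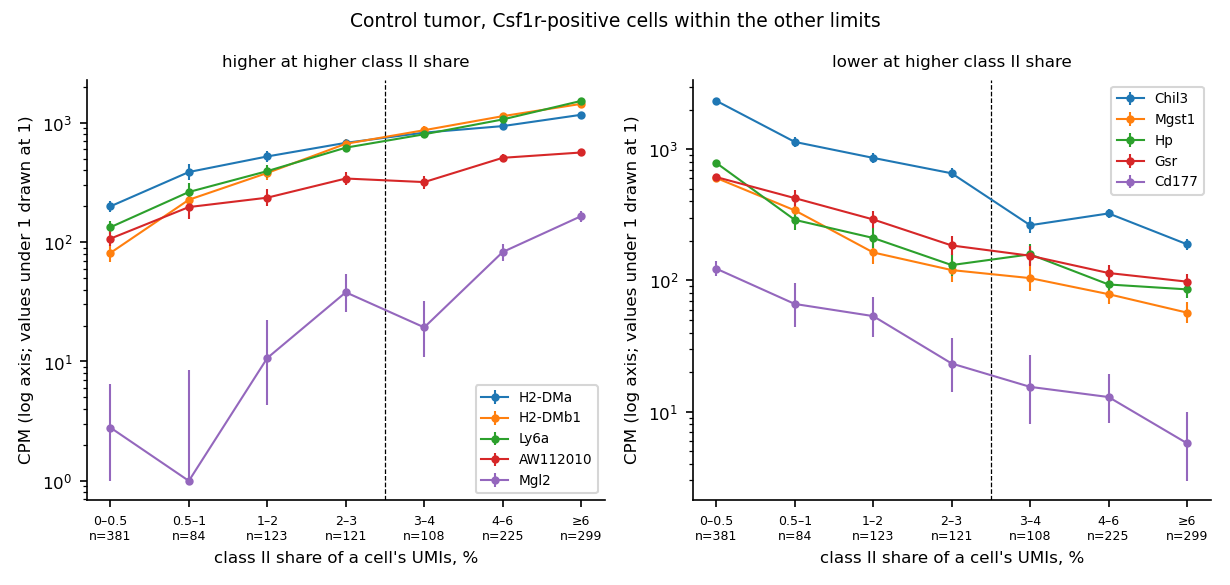
CPM (log axis, 95% counting intervals) over 7 bins of the class II and Cd74 share in Csf1r-positive control tumor cells within the other limits. The dashed line is the 3% limit of the rule. H2-DMa, H2-DMb1 and Ly6a climb at every step on the left, AW112010 and Mgl2 with a dip at 3% to 4%. Mgst1, Gsr and Cd177 decline at every step on the right, and Chil3 and Hp with 1 step up.

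Against the 774 C1q-high counterparts, which met the same rule except for a C1q share of at least 0.3%, the cells had more monocyte and fewer macrophage transcripts. Of 5995 genes 63 (1.05%) were called higher and 93 (1.55%) lower, and 152 and 231 with cells thinned to 1500 UMIs. Of 21 classical monocyte genes 8 were higher and 0 lower, with a median log2 ratio of 0.85 against -0.01 for all genes. Hp had 101 CPM in C1q-low cells and 21.7 CPM in C1q-high cells, and Plac8 3042 and 1045 CPM, a log2 ratio of 1.54 (1.502 to 1.58). S100a4, a calcium-binding protein of motile cells, had 691 and 300.3 CPM. Of the nonclassical monocyte genes, Treml4 was higher, at 23.6 against 9.76 CPM.

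Of 25 macrophage genes 10 were lower and 0 higher, with a median log2 ratio of -0.85. Apoe, the lipid carrier, had 2111 CPM in C1q-low cells and 6116 CPM in C1q-high cells, a log2 ratio of -1.53 (-1.57 to -1.504). Ms4a7 had 130.4 and 667 CPM, Trem2 61.5 and 235 CPM, and Vcam1, an adhesion molecule, 39.97 and 136 CPM. The C1q limit was set in the same cells, so these values too are description. Ccl8, a monocyte-attracting chemokine, had 86.6 and 872 CPM, and Il10 44.9 and 104 CPM.

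Class II pathway genes did not part these groups at 2-fold. None of 14 measured class II pathway genes was called, and H2-DMb1 had 1224 and 1026 CPM. Over all genes only 1.05% were called higher and 1.55% lower, so a list this short would hold few or no calls. After thinning to 1500 UMIs, Ly6a lay in 58.6% of C1q-low and 73.5% of C1q-high cells, and Mgl2 in 5.71% and 5.77%. Neither gene was thus particular to the C1q-low cells. The inflammatory ligands Cd80 (74.4 against 27.0 CPM) and Cxcl10 (517 against 228 CPM) were higher in C1q-low cells. Of 17 cell cycle genes 6 were lower and 0 higher. After thinning to 1500 UMIs, 5 of 631 C1q-low cells (0.792%, 0.258 to 1.84) and 20 of 762 C1q-high cells (2.62%, 1.61 to 4.02) held at least 2 UMIs of 11 mitotic genes. The C1q-high cells were deeper, with a median of 9110.5 UMIs.

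The 42 Flt3-positive cells of the control tumor met the class II, C1q, Xcr1, Clec9a, Siglech and Ccr7 limits, with no need of a Csf1r UMI. With so few cells the counting intervals were wide. Of 6040 genes, 800 (13.2%) were at least 2-fold higher in the Flt3-negative MHC-II-high C1q-low cells and 617 (10.2%) lower. With cells thinned to 1500 UMIs the counts were 618 and 1500, so neither total is firm. All 13 measured inflammatory chemokines were higher, and of 26 macrophage genes 20 were higher and 2 lower. C3ar1, the receptor for complement fragment C3a, had 210.4 CPM in Flt3-negative cells and 3.15 CPM in Flt3-positive cells, from 1 UMI there, a log2 ratio of 6.06 (3.58 to 11.37). Cxcl1, a neutrophil attractant, had 499.9 and 12.6 CPM, and Cd14 3901 and 777 CPM. All 5 measured Fc gamma receptor genes were higher.

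Dendritic cell genes were lower in the Flt3-negative cells: 13 of 19 in the cDC2 and pan-dendritic list, and 1 was higher. Cst3, cystatin C, had 2976 CPM in MHC-II-high C1q-low cells and 18523 CPM in Flt3-positive cells, a log2 ratio of -2.64 (-2.68 to -2.59). Cd209a had 58.2 and 431 CPM, and Plet1 9.89 and 359 CPM. H2-Oa and H2-Ob, whose promoters hold the shared module, had 12.03 and 8.81 CPM, against 116 and 101 CPM. H2-DMb1 had 1224 and 1318 CPM, so H2-DMb1 stayed within 2-fold where both H2-O genes passed it. The 25 genes of the list summed to 787 and 3092 CPM.

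The 632 cells were spread over the clusters of the library, which were built without the genes of the rule. Cluster numbers are names only, levels are descriptions, and "the others" are the remaining MHC-II-high C1q-low cells. Clusters 1, 2 and 7 held 194, 134 and 81 of them (30.7%, 21.2% and 12.8%), clusters 0 and 4 held 56 and 47, and 5 more held 17 to 27 each. Only in clusters 1 and 7 did they make up about 1 in 3 cells (35.0% and 32.9%). No cluster consisted of them alone, and they shared clusters with MHC-II-low and C1q-high cells.

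In cluster 1 the cells had Inhba, the activin A subunit, at 439 CPM against 232 CPM in the others. In cluster 2 they were rich in monocyte-attracting chemokines, with Ccl2 at 2886 against 986 CPM. Mrc1 was higher in it as well, at 213 against 51.2 CPM. In cluster 7, Cxcl9 had 1422 against 280.2 CPM and Irf8 1163 against 275 CPM. In cluster 0, whose cells were mostly MHC-II-low, Cxcl10 had 2551 against 361 CPM and Hp 317 against 84.0 CPM. In cluster 4, Cxcl1 had 2203 against 312 CPM and Arg1, arginase, 709.7 against 81.4 CPM.

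Small groups carried much of some transcripts. The 27 cells in cluster 6, the Cd209a-led cluster, had Cd209a at 631 against 28.5 CPM and Klrd1 at 205 against 12.7 CPM. That cluster also held 17 of the 42 Flt3-positive cells, so these 27 share a cluster with cells the rule leaves out. The 25 in cluster 10 had Ifit1 at 1109 against 38.7 CPM. The 17 in cluster 12 had Mgl2 at 1346 against 52.6 CPM and Ccl17, a T cell chemokine, at 616 against 31.2 CPM.

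**Figure D4:**
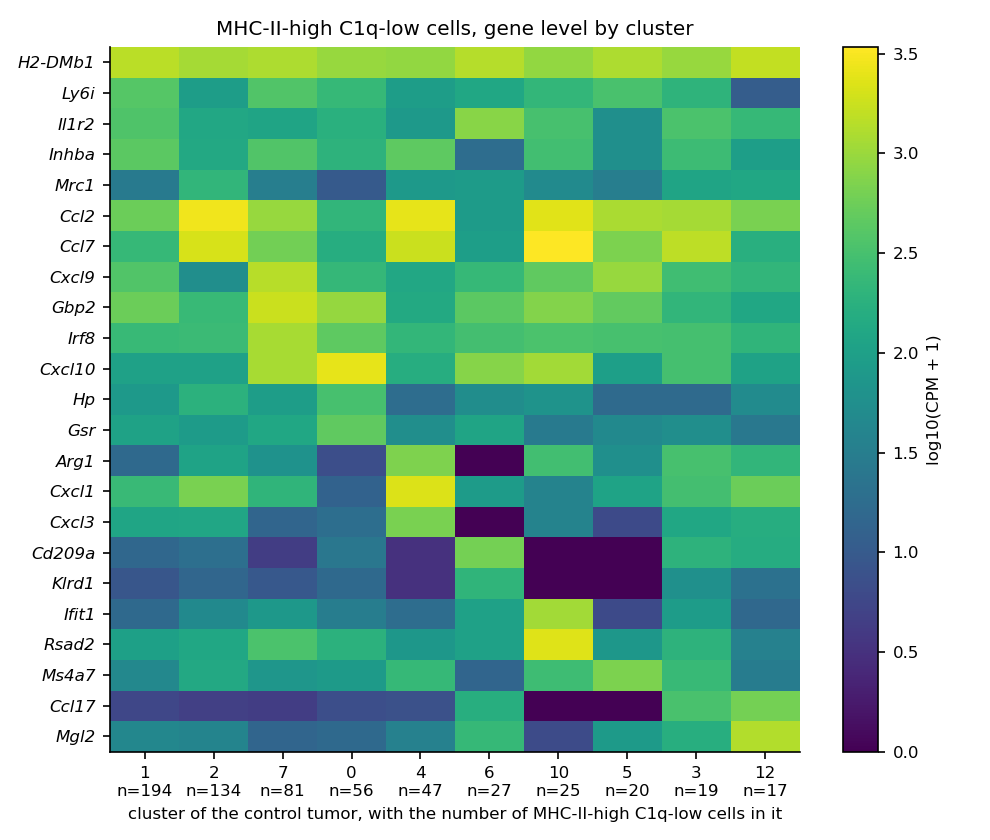
Colour gives log10(CPM + 1) of 23 genes (rows) summed over the MHC-II-high C1q-low cells in each of 10 clusters of the control tumor (columns, with their number of these cells). H2-DMb1 is bright in every column, while Cxcl9, Cxcl10, Cxcl1, Cd209a, Ifit1 and Mgl2 each peak in 1 column.

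In the Treg-depleted tumor the same rule found fewer cells, with other levels. It passed 234 of 4434 kept cells there, 5.28% (4.64 to 5.98), against 14.2% in the control tumor, and 11.95% (10.5 to 13.5) against 20.6% of cells with a Csf1r UMI. After thinning to 1500 UMIs the shares were 2.73% (2.25 to 3.29) and 7.55% (6.78 to 8.38), and 12.8% and 27.0% of cells with a Csf1r UMI. The sort and 1 library a group bear on these shares. Their class II and Cd74 share had a median of 4.10%, against 5.89%, with free RNA at 1.92% and 4.43%.

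Of 5974 genes 270 (4.52%) were at least 2-fold higher in the Treg-depleted cells and 225 (3.77%) lower, and 538 and 471 with cells thinned to 1500 UMIs. Arg1 had 3409 CPM in Treg-depleted cells and 144 CPM in control cells, a log2 ratio of 4.57 (4.45 to 4.69). Ccl24, an eosinophil-attracting chemokine, had 4741 and 26.9 CPM, and Ccl17 1927 and 56.7 CPM. The alternative activation list had 5 of 16 higher and 2 lower, and Pdcd1lg2, the ligand PD-L2, had 209 and 34.6 CPM. Nos2, inducible nitric oxide synthase, was also higher, at 119.8 against 12.5 CPM, as were 6 of 23 interferon-gamma genes. Of 13 cDC2 and pan-dendritic genes 8 were higher and 0 lower, among them Mgl2 at 483 against 109 CPM and Plet1 at 136 against 9.89 CPM. That list summed to 3324 CPM in Treg-depleted cells and 787 CPM in control cells, of which Ccl17 was the greater part, and Zbtb46 stood at 5.74 and 1.504 CPM, under the minimum for a call. The part of dendritic cells in these levels was not tested.

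Of 25 macrophage genes 8 were lower and 2 higher in the Treg-depleted cells, and of 21 classical monocyte genes 8 were lower and 2 higher. Apoe had 247 CPM in Treg-depleted cells and 2111 CPM in control cells. Ms4a7 had 20.1 and 130.4 CPM, Adgre1 40.2 and 122 CPM, and Lyz2, lysozyme, 3932 and 14662 CPM. The immediate early gene Fos had 129 and 495 CPM. Class II pathway genes parted little: H2-DMa had 822 and 1019 CPM, H2-DMb1 804 and 1224 CPM, and Ciita was higher at 22.9 against 10.3 CPM. The Ciita call did not hold with cells thinned to 1500 UMIs, where its log2 ratio was 0.45.

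MHC-II-low cells of the tumors differed in several of these genes as well. In MHC-II-low cells within the limits, Ccl24 had 5166 CPM in the Treg-depleted tumor and 121 CPM in the control tumor. Arg1 there had 4275 and 258 CPM, Apoe 141 and 2406 CPM, and Lyz2 5128 and 25663 CPM. Free RNA differed in the same way, with Ccl24 at 5056 and 42.5 CPM, Arg1 at 3544 and 177 CPM and Apoe at 171 and 4547 CPM in near-empty barcodes. Its part in the cells' levels was not tested beyond the subtraction of a fixed share.

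**Figure D5:**
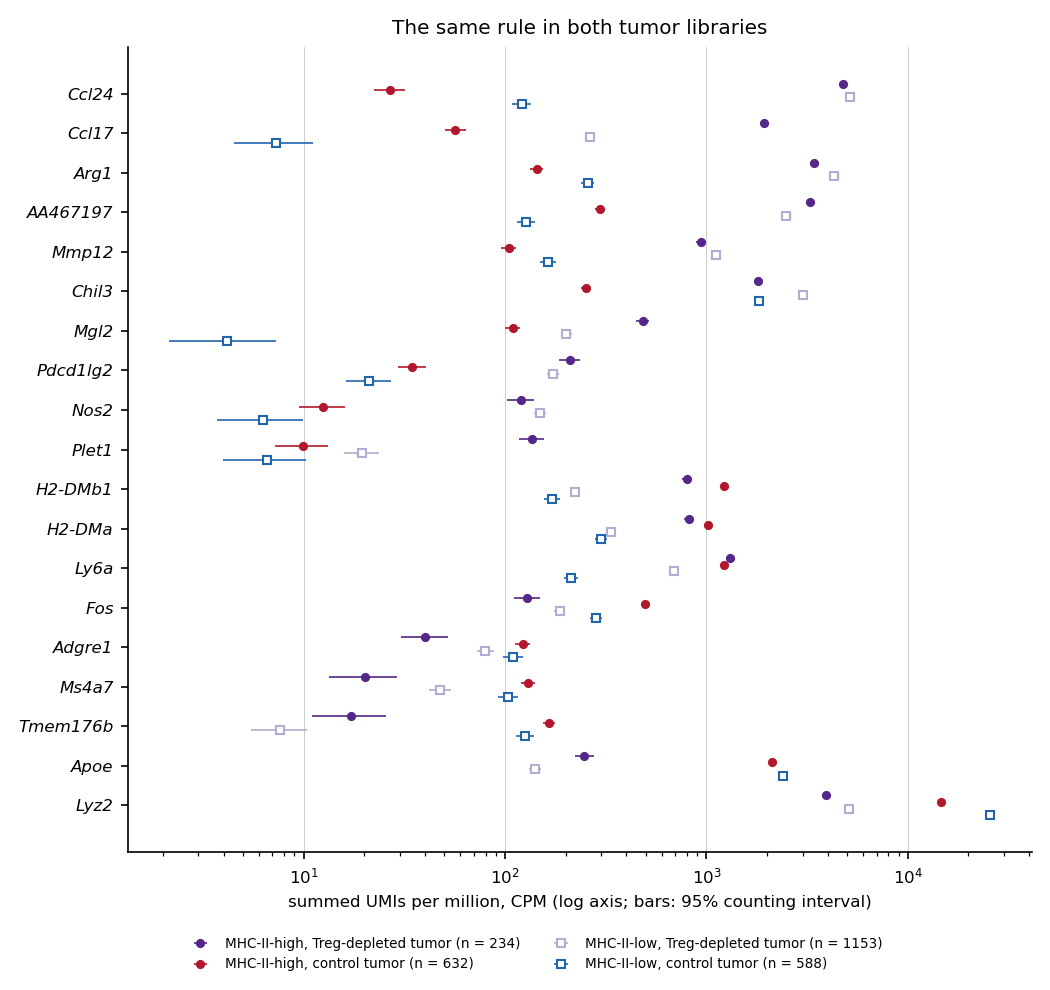
Summed CPM (log axis, 95% counting intervals) of 19 genes in MHC-II-high C1q-low cells (filled circles) and MHC-II-low cells within the other limits (open squares) of the Treg-depleted and the control tumor. Arg1, Ccl24 and Apoe separate by tumor in both kinds of cell, while H2-DMa and H2-DMb1 separate by class II share in both tumors.

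The contrast of MHC-II-high with MHC-II-low cells within the limits was then made inside each library, where the groups share no cells. In the Treg-depleted tumor 76 of 6106 genes (1.24%) were higher and 206 (3.37%) lower (95 and 158 with scaling by the median of gene ratios), and in control blood 60 of 6616 (0.907%) and 98 (1.48%). With cells thinned to 1500 UMIs the higher and lower counts were 261 and 515 in the Treg-depleted tumor and 111 and 210 in blood. The 3 H2-DM genes, Mgl2, Cd209a and Pltp, a phospholipid transfer protein, were higher in all 3 libraries, out of 5176 genes measured in all. H2-DMb1 had 804 against 222 CPM in the Treg-depleted tumor, 1224 against 171 CPM in the control tumor and 1047 against 153 CPM in blood. Mgl2 had 483 against 202 CPM, 109 against 4.16 CPM, and 35.0 against 0.597 CPM. Genes lower in all 3 included Hp, Cd177, Vcan, Mmp8, G0s2, Ptgr1 and Smpdl3a, several of them classical monocyte or granulocyte genes. Hp had 35.1 against 141 CPM, 101 against 581 CPM, and 312 against 1139 CPM. In the Treg-depleted tumor its log2 ratio was -2.003, and -1.09 with cells thinned to 1500 UMIs.

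Other genes were called in some libraries only, and the difference between libraries was not tested. Of the 5598 genes measured in both tumors, 55 were higher in the Treg-depleted tumor, 80 in the control tumor and 17 in both. The 17 are 30.9% of the 55 and 21.3% of the 80. The 30.9% is to be read against the control tumor's 80 of 5598 genes. Ccl2 had 1301 against 4136 CPM in the Treg-depleted tumor and 1316 against 1180.5 CPM in the control tumor. Ccl7 had 954 against 4213 CPM and 971 against 675 CPM. Ccl17 had 1927 against 265 CPM and 56.7 against 7.29 CPM. Ly6a, close to 2-fold in the first at 1303 against 689 CPM, had 1225 against 212 CPM in the second.

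Blood of control mice held cells that pass the rule as well, 519 of 5550 kept cells or 9.35% (8.60 to 10.1), and 6.89% (6.21 to 7.63) after thinning. Of 6492 genes 839 (12.9%) were at least 2-fold higher in the control tumor cells and 1137 (17.5%) lower. The median log2 ratio over all of them was -0.22, and with scaling by the median of gene ratios 1059 were higher and 840 lower. Tissue, digestion and library cannot be told apart in this comparison. Inflammatory genes were far lower in blood. Of 21 NF-kB genes and cytokines 19 were higher in the tumor, and 11 of 13 inflammatory chemokines. Cxcl2 had 4226 CPM in tumor cells and 2.80 CPM in blood cells, Cd14 3901 and 18.2 CPM, and Spp1, osteopontin, 1090.4 and 4.20 CPM. Cxcl1 and Inhba had 0 UMIs in blood, where 3 counts are 1.40 CPM, and 499.9 and 288 CPM in the tumor. Of 11 measured costimulatory and inhibitory ligands 9 were higher in the tumor and 1 lower. Among them was Cd86 at 426 against 27.0 CPM. Of 21 glycolysis and hypoxia genes 16 were higher and 0 lower. Near-empty barcodes of the control tumor held Cxcl2 at 4551, Cxcl1 at 797 and Spp1 at 1520 CPM, above the tumor cells, and Cd86 at 428 CPM. Cd14 and Inhba stood lower there than in the tumor cells, at 2860.2 and 79.5 CPM. The part of free RNA in the tumor cells' levels was not tested.

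Blood cells that passed the rule had more of the genes of circulating and patrolling monocytes. Of 14 nonclassical monocyte genes 11 were lower in the tumor and 1 higher. Cx3cr1, the fractalkine receptor, had 9.46 CPM in tumor cells and 290.0 CPM in blood cells, and Ace 8.81 and 153 CPM. Ccr2 had 218 and 1314 CPM. The cDC2 and pan-dendritic list was also higher in blood by its sum, at 787 CPM in tumor cells and 1104 CPM in blood cells. Cd209a had 58.2 and 379 CPM, and lay in 7.28% of tumor cells and 24.5% of blood cells. Mgl2 went the other way, in 10.8% and 5.97% of cells. The part of dendritic cells in the blood values was not tested. Ciita had 10.3 and 69.5 CPM, while H2-DMa had 1019 and 1162 CPM. Of 8 measured neutrophil genes 7 were lower in the tumor and Il1r2 was higher, with S100a8 at 28.2 and 737 CPM and Retnlg at 1.504 and 131 CPM. Near-empty barcodes of blood held S100a8 at 5249.6 CPM and Retnlg at 1160.1 CPM, above the blood cells themselves. The doublet score marked 36 of the 519 blood cells (6.94%), against 4.43% of their library. The part of free RNA and doublets in these values was not tested. The B cell genes Cd79a, Cd79b and Ly6d were lower too, and that list summed to 10.3 CPM in tumor cells and 172 CPM in blood cells. The part of B cell RNA in the blood values was not tested.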

How the data were processed

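The deposited files are 3 matrices of UMI counts per gene and barcode, 1 per library, made by the authors from 10x 3' v2 libraries. The submitters' processing notes name Cell Ranger 1.2 and mm10, and other settings are not given in the sources used here. The matrices hold all barcodes, so empty droplets were removed with the limits of the rule. Counts were summed over the cells of a group and divided by the group's total (CPM). A gene was tested for a call when the mean CPM of both groups was at least 10 and it was not in the rule. Log2 ratios carry conditional binomial 95% intervals, and a count of 0 allows up to 3 counts. Intervals and floors cover counting error only, and with 1 library per group no p-value was computed.

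The cells and the gene lists (35 lists, 557 of 570 genes found) were chosen with earlier results of these data known. Named genes were the 15 highest and the 15 lowest in a comparison with a mean of at least 50 CPM, and members of the lists. The text gives part of them, and Il12b, Ccl5 and the cluster genes were picked after their values were seen. Symbols shared by several identifiers (65 identifiers) were left out. Doublets were scored with simulated pairs and kept, and their removal was an alternative. Clusters (Leiden) were built without the genes of the rule. Thinning drew 1500 UMIs per cell. Ambient RNA was taken from barcodes with 1 to 50 UMIs, and 10% of a group's total was subtracted in the alternative. Contrasts within the other limits were added after seeing the data. Near-identical genes (H2-DMb1 and H2-DMb2, Ccl7 and Ccl12, the Ifit family) may share reads. The calls were tested on simulated data, where more unchanged genes were called against the small Flt3-positive group than in the other comparisons tested. Python 3.11.15, numpy 2.4.6, scipy 1.17.1, pandas 2.3.3, scanpy 1.11.5 and scikit-learn 1.9.0 were used. Some genes are not reported here.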

Additional observations from a re-analysis of the deposited data

Results flagged for a closer look

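Summed levels of Mrc1 and Retnla moved in opposite directions between MHC-II-high and MHC-II-low cells of the tumors, and the difference was not tested. For Retnla the control tumor's direction rests largely on 1 cell. For Mrc1, the mannose receptor, the log2 ratio was -1.83 (-2.07 to -1.60) in the Treg-depleted tumor, with 117 CPM in MHC-II-high and 416 CPM in MHC-II-low cells within the other limits. In the control tumor it was 1.65 (1.28 to 2.03), with 79.3 and 25.3 CPM. For Retnla, a secreted protein of alternatively activated macrophages, the ratio was -3.10 (-3.31 to -2.90) in the Treg-depleted tumor, with 146 and 1247 CPM. In the control tumor it was 6.26 (4.70 to 8.54), with 79.5 and 1.04 CPM, and there 1 cell held 300 of the Retnla UMIs of the 632 cells.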

How the results depend on the processing

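Of the alternative values of named genes, 1413 stayed within the interval of the reported value, 409 moved with the same sign or within the uncalled range, and 4 reversed. The reversed genes, with the first contrast limited to cells that meet the other limits, were Ccl12 (0.73), Ccl8 (0.12), Cd63 (0.12) and Ms4a7 (0.33, all log2). That contrast also gave 92 higher genes, against 45 without the limits. The share of kept cells that pass the rule was 15.7% with a UMI minimum set from the 99th percentile, 11.8% with class II at least 4%, 15.6% at least 2.5% and 11.5% with C1q under 0.1%. It was 9.14% (406 cells) with at least 2 Csf1r UMIs and 12.9% without cells holding B cell or dendritic cell gene UMIs. Thinning to 1500 UMIs, which leaves fewer UMIs per group, raised these counts of called genes. Higher and lower counts were 108 and 239 in the first contrast, 210 and 259 within the limits, and 152 and 231 against C1q-high cells. They were 538 and 471 between tumors, 261 and 515 within the Treg-depleted tumor and 111 and 210 within blood, and 1500 were lower against Flt3-positive cells. Without the 10 CPM minimum 114 were higher and 536 lower in the first contrast. With ambient RNA subtracted 95 were higher against C1q-high cells and 320 lower within the Treg-depleted tumor. No paired analysis was possible because each group is 1 library, and for the same reason no replicate could be left out. Depth limits the Flt3-positive group (42 cells) most.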
